A study of Mus musculus with 10 samples.

Results

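The lymph node holds 2 vessel systems side by side, one lined by lymphatic endothelial cells (LEC) and the other by endothelial cells of blood vessels (BEC). The LN-LEC and LN-BEC were compared here over every named gene, with 4 LN-LEC and 3 LN-BEC libraries chosen by their population label out of the 10 libraries of the series. Both populations came from nodes pooled over 5 sites (mesenteric, cervical, inguinal, axillary and brachial) of C57BL/6 mice aged 6 to 8 weeks. Nodes were digested, CD45-bearing leukocytes were depleted with beads, and CD31-positive cells were sorted into LEC and BEC by podoplanin (PDPN). RNA was amplified before sequencing. In addition, 3 libraries of diaphragm LEC (D-LEC) from mice of the same strain and age entered the model to share its estimate of the spread. They also entered the scaling of the libraries and the choice of genes tested. Each library is a pool of several mice and of several node sites, so the p-values measure the spread between pools. The labels of replicates carry no pairing between populations, and replicates are numbered here in the order of their records.

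LEC take up fluid, antigen, lipid and cells from tissue and carry them through the sinuses of the node, and their identity is set by the transcription factor PROX1. BEC of the node include the high endothelial venules (HEV), whose tall cells carry sulfated and sialylated sugars that L-selectin of circulating lymphocytes binds, together with capillaries, arterioles and other venules. A bulk library averages over these vessel types. With RNA from bulk samples, fewer cells of a type and less RNA per cell cannot be told apart.

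The deposited table held 23284 rows, of which 19453 carry a gene name, and 15320 of these reached a mean normalized count of at least 1 in at least 1 population and were tested. A normalized count, called a level below, is the number of fragments divided by the DESeq2 size factor of the library, without scaling for gene length. The 7 lymph node libraries held 22429940 to 48906070 fragments. A chi-square per gene, averaged over genes for each pair of libraries within a population, was 10.8 to 406 where counting alone would give about 1. It was at least 124 in pairs with LN-LEC replicate 4 or LN-BEC replicate 3 and at most 27.7 in the other pairs. Abundant genes drive this mean, so it does not describe genes of few counts. LN-LEC replicate 4 and LN-BEC replicate 3 stood farthest from the other libraries of their populations. Their deviations from the other replicates were correlated across genes (r = 0.37, a description over 15320 genes that share libraries), whereas r was -0.23 to 0.18 for every other LN-LEC and LN-BEC pair.

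Of 15320 genes tested, 5849 (38.2%) passed the test between the lymph node populations (edgeR quasi-likelihood F-test on all 10 libraries, Benjamini-Hochberg adjusted p under 0.05). Of these, 3032 (19.8%) were higher in LN-LEC and 2817 (18.4%) were higher in LN-BEC. A fold of at least 5 was reached by 688 of the former (4.49% of the genes tested) and 819 of the latter (5.35%). For 6881 genes (44.9%), called or not, all LN-LEC libraries lay on one side of all LN-BEC libraries. Without LN-BEC replicate 3 and LN-LEC replicate 4 the comparison called 5409 genes, of which 5082 were among the 5849.

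**Figure D1:**
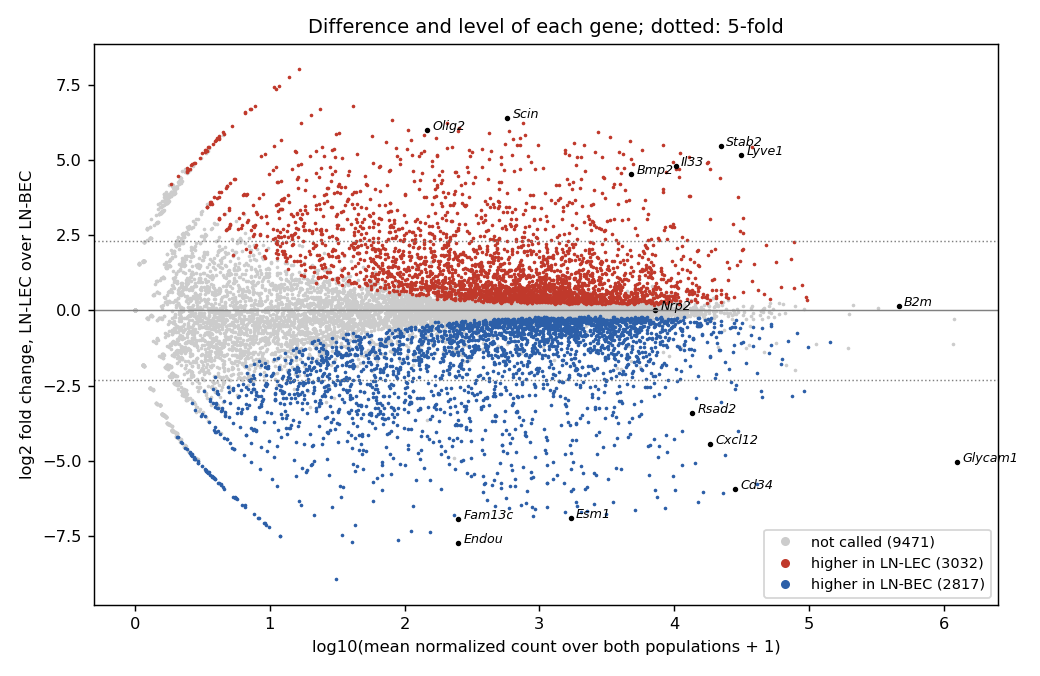
Fitted log2 fold change (LN-LEC over LN-BEC) of each of the 15320 genes against the log10 of its mean level over both populations, with calls coloured by direction and dotted lines at 5-fold. Glycam1 lies at the far right with a log2 fold change of -5.05, B2m lies near 0, and the genes with the largest folds lie at moderate levels.

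Transcripts of salivary gland secretory proteins were abundant in these sorted cells and varied between libraries. Bpifa2, which encodes the parotid secretory protein, had levels of 439998, 343686, 350897 and 1802920 in LN-LEC replicates 1 to 4. In the LN-BEC replicates 1 to 3 its levels were 679268, 411921 and 3765540. The D-LEC libraries had a mean of 2737, so that the transcript was high in all 7 lymph node libraries, and highest in LN-BEC replicate 3 and LN-LEC replicate 4. Over 13 such genes, including Amy1 (salivary amylase), Pip, Smr3a, Car6 and the water channel Aqp5, the share of all fragments was 15.6% in LN-BEC replicate 3 and 8.68% in LN-LEC replicate 4. It was 1.67% to 2.93% in the other 5 lymph node libraries and at most 0.0373% in D-LEC. All 13 genes were highest in replicate 3 among LN-BEC and in replicate 4 among LN-LEC. Dcpp2 and the mucin gene Muc19 were nearly confined to those libraries. Dcpp2 stood at 378041 in LN-BEC replicate 3 and 126294 in LN-LEC replicate 4, against 239 to 1569 in the other lymph node libraries. None of the 13 genes passed the test between LN-LEC and LN-BEC (edgeR adjusted p 0.292 to 0.761). Genes of 6 pancreatic digestive enzymes, such as Prss2 and Pnlip, had the same 2 libraries on top but took at most 0.0106% of fragments. These genes were picked after their values were seen, and the part of this RNA in the comparisons was not tested.

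**Figure D2:**
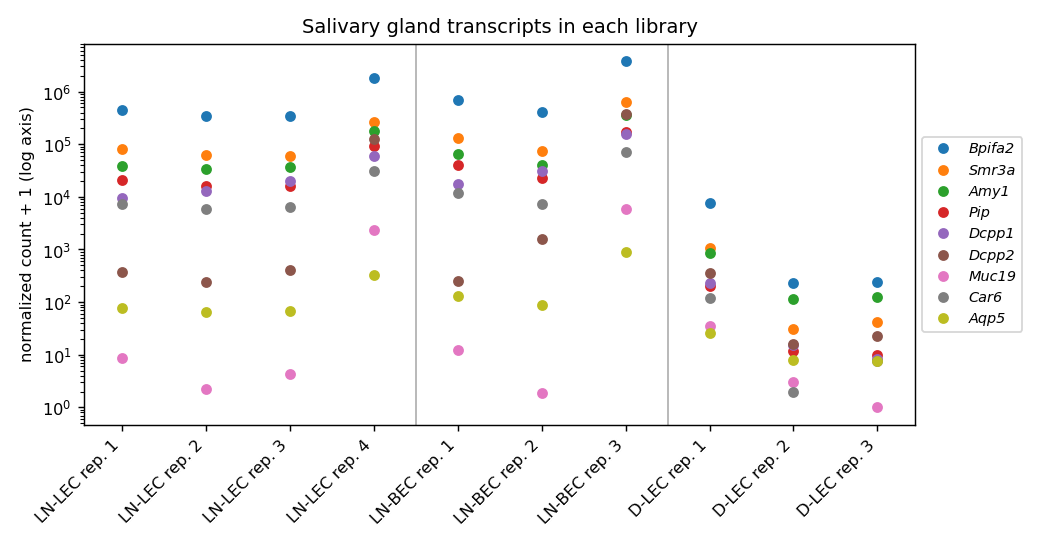
Levels (normalized count + 1, log axis) of 9 salivary gland transcripts in each of the 10 libraries, 1 point per gene and library, with vertical lines between LN-LEC, LN-BEC and D-LEC. Bpifa2 was highest in every library, at 1802920 in LN-LEC replicate 4 and 3765540 in LN-BEC replicate 3, and Dcpp2 and Muc19 were high in only those 2 libraries.

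The markers separated the populations as labelled. Of 11 LEC markers tested, 10 were higher in LN-LEC, and all 15 BEC markers were higher in LN-BEC. The list median was 4.93 for LEC markers and -5.40 for BEC markers on the log2 scale, where positive values mean higher in LN-LEC, against -0.0083 over all 15320 genes. Pdpn, the gene of the sort marker, had levels of 19607, 18915, 16352 and 20539 in LN-LEC and 512, 179 and 1175 in LN-BEC, which the sort itself selected. Prox1 had 8343, 8291, 8188 and 7578 in LN-LEC and 208, 115 and 349 in LN-BEC, so that the highest LN-BEC library held 4.31% of the LN-LEC mean. Flt1, which encodes VEGF receptor 1, had 214, 169, 150 and 255 in LN-LEC and 14986, 15297 and 13648 in LN-BEC. The populations did not come near each other in any library for these genes. Nrp2, a VEGF-C co-receptor often used as a LEC marker, was level, at 7315, 7221, 7941 and 6566 in LN-LEC and 7315, 7486 and 6974 in LN-BEC (log2 fold change 0.02, SE 0.09, edgeR adjusted p = 0.917). Ccl21a, which has near-identical copies, was listed at 0 in all 7 libraries and was not tested.

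LEC RNA was most visible in LN-BEC replicate 3. For each LN-BEC library, genes were taken whose LN-LEC mean was at least 500 and at least 20-fold above the mean of the other LN-BEC libraries, so that the library described did not choose its own genes. Over 97 such genes LN-BEC replicate 3 held a median of 5.92% of the LN-LEC level, with quartiles of 4.98% and 7.96%. Replicate 1 held 2.29% over 71 genes and replicate 2 held 0.95% over 59 genes. Known LEC genes in LN-BEC replicate 3 fell into the same narrow band, with Lyve1 at 5.89%, Pdpn at 6.23%, Reln at 5.23%, Mmrn1 at 6.66% and Tbx1 at 5.61% of the LN-LEC mean. In replicate 2 the same 5 genes stood between 0.94% and 1.06%. Lyve1, the hyaluronan receptor of LEC, had 61045, 59820, 73892 and 48523 in LN-LEC, and its LN-BEC levels of 883, 643 and 3580 followed that order. Among the 688 genes called at least 5-fold higher in LN-LEC, LN-BEC replicate 3 had the highest LN-BEC level for 438. Their median fold was 11.1 with all libraries and 13.6 without that replicate. In the other direction, BEC genes stood at a median of 1.52% to 2.77% of the LN-BEC level in the LN-LEC libraries, highest in LN-LEC replicate 4.

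Some markers exceeded these shares in every library of the other population. The LEC genes Flt4 (VEGF receptor 3) at 11.9% to 16.6%, Itga9 at 6.94% to 10.5% and Foxc2 at 3.62% to 10.8% lay above the upper quartile in all 3 LN-BEC libraries. Flt4 had 16054, 15964, 17361 and 15460 in LN-LEC and 2360, 1926 and 2693 in LN-BEC. These levels were similar in the 3 LN-BEC libraries, unlike those of Lyve1. Among BEC markers, Plvap stood at 41.7% to 46.4%, Sele at 18.7% to 43.2%, Podxl at 16.04% to 27.03% and Selp at 10.6% to 16.003% of the LN-BEC mean in the LN-LEC libraries, while Flt1, Nrp1, Cd34, Sox17 and Esm1 stayed at or below 2.15%. Plvap, which forms the diaphragms of fenestrae and caveolae, had 17213, 16054, 17674 and 17867 in LN-LEC against 33470, 43134 and 38863 in LN-BEC.

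**Figure D3:**
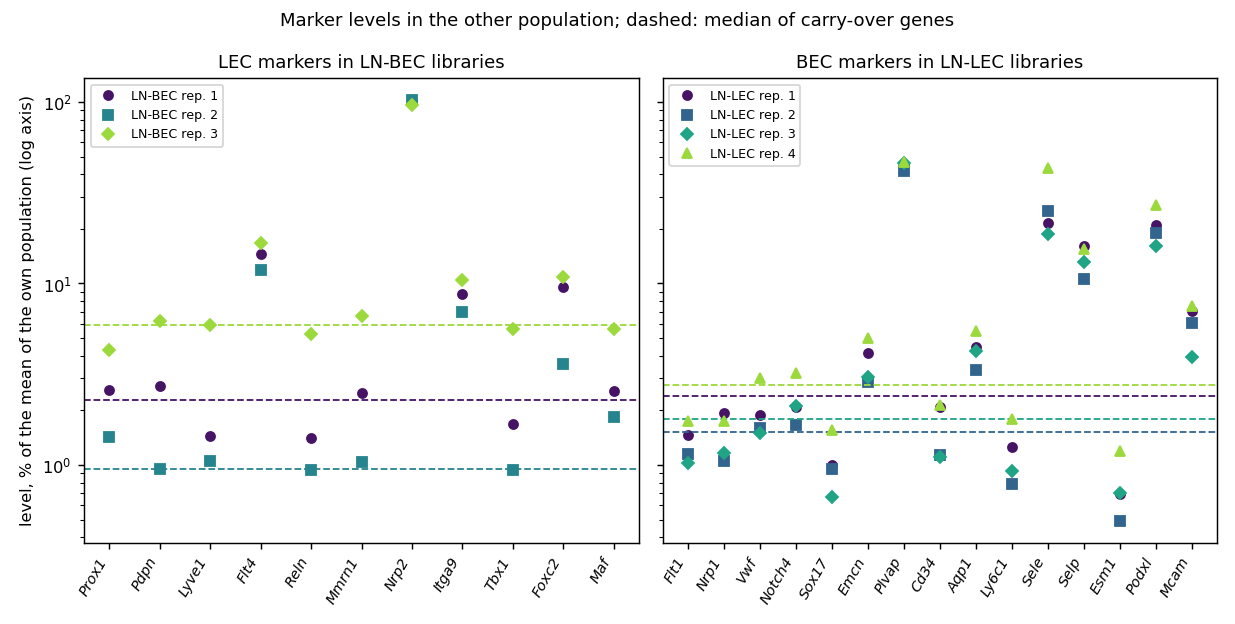
Level of each LEC marker in the 3 LN-BEC libraries (left) and of each BEC marker in the 4 LN-LEC libraries (right), as a percent of the mean in the marker's own population on a log axis, 1 symbol per library. Dashed lines give the median over the carry-over genes of the library of the same colour. LN-BEC replicate 3 had the highest value for every LEC marker shown except Nrp2, and Flt4, Itga9 and Foxc2 lay above the dashed line of each LN-BEC library.

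The genes with the largest folds were mostly not textbook lineage markers. Among called genes with a mean of at least 100, the 12 largest folds toward LN-LEC were those of Scin, Tmem132b, Dbc1, Tmem229a, Col22a1, Olig2, Dbx2, Spock3, Psg22, Mmp9, Bmp8a and Art2a-ps. Scin, which encodes the actin-severing protein scinderin, had 1234, 1283, 913 and 1147 in LN-LEC and 3.5, 10.4 and 29.4 in LN-BEC, an 83.4-fold difference (log2 6.38, SE 0.56). Olig2, a transcription factor known from oligodendrocytes, had 280, 295, 296 and 278 in LN-LEC and 0, 3.46 and 10.5 in LN-BEC. Mmp9, the gelatinase B gene, had 6502, 5823, 3799 and 5405 in LN-LEC and 50.8, 19.0 and 203 in LN-BEC. The 3 genes shared a pattern in LN-BEC, with replicate 3 highest. The 12 largest folds toward LN-BEC were those of Endou, Fam19a2, Necab2, Zfp366, Fam13c, Esm1, Ptgds, Tshr, Abcb1a, Chst4, Akr1c14 and Slc14a1. Endou, a poly(U)-specific endoribonuclease gene, had 1.3, 1.27, 2.26 and 3.14 in LN-LEC and 468, 464 and 546 in LN-BEC. Esm1 (endocan), a product of angiogenic endothelium, had 23.3, 16.5, 23.7 and 40.2 in LN-LEC and 3310, 3401 and 3426 in LN-BEC, a 120-fold difference (SE of the log2 value 0.19, edgeR adjusted p = 1.89e-11). Abcb1a, the P-glycoprotein drug efflux pump, had 62.2, 36.8, 44.1 and 74.8 in LN-LEC and 6505, 5805 and 6152 in LN-BEC. In Tmem132b, Fam19a2 and Zfp366 each library of the other population held 3 counts or fewer, so the size of their folds rests on very few fragments.

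Transcripts of endocytic receptors were mostly higher in LN-LEC. Of 21 scavenger and endocytic receptors, 13 were higher in LN-LEC and 1 in LN-BEC, with a list median of 1.73. Stab2, a receptor that clears hyaluronan and modified lipoproteins, had 41447, 38476, 47652 and 46353 in LN-LEC and 572, 303 and 2116 in LN-BEC (44.2-fold). Marco, a scavenger receptor best known from macrophages, had 29995, 20406, 33074 and 16957 against 348, 194 and 1690. Both were high in every LN-LEC library, and in LN-BEC both were highest in replicate 3. The mannose receptor gene Mrc1 (54.0-fold), the class A scavenger receptor gene Msr1 (45.02-fold) and the inhibitory Fc receptor gene Fcgr2b (11.05-fold) were also higher in LN-LEC. The exception was Scarb1, the HDL receptor, at 1062, 904, 955 and 803 in LN-LEC and 16130, 17098 and 15902 in LN-BEC. The macrophage markers Emr1 and Csf1r were low in both populations, with mean levels in LN-LEC and LN-BEC of 3.23 and 3.59 for Emr1 and 35.5 and 25.7 for Csf1r. The summed level of the 13 macrophage and dendritic cell markers was 1178 to 1300 in LN-LEC libraries and 1332 to 1415 in LN-BEC libraries. Of the 11 tested, Siglec1 and Aif1 were higher in LN-LEC, both by at least 5-fold. Ptprc and Cd68 were higher in LN-BEC, 1 of them by at least 5-fold. Without LN-BEC replicate 3 Csf1r was called higher in LN-LEC as well (log2 1.31). The part of macrophage RNA in the receptor result was not tested.

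Lysosomal genes followed the receptors. Of 43 lysosomal hydrolases and membrane proteins, 24 were higher in LN-LEC and 4 in LN-BEC, although the median difference was only 0.36 on the log2 scale. Legumain (Lgmn), an asparaginyl protease that processes antigen, had 11085, 10044, 9982 and 11703 in LN-LEC and 2047, 2083 and 2206 in LN-BEC. Ctsd, which encodes cathepsin D, had 33497, 28458, 40305 and 27683 against 7019, 7793 and 9189. Ctsc, which activates granule proteases, went the other way, at 102, 71.1, 73.5 and 114 against 366, 275 and 357. Of 23 subunits of the vacuolar ATPase, the pump that acidifies lysosomes, 8 were higher in LN-LEC and 1 in LN-BEC. Transport from the endoplasmic reticulum to the Golgi contrasted with this, since 36 of its 39 genes were not called and the median was 0.02.

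Complement genes were also mostly higher in LN-LEC, 13 of 23 against 2 in LN-BEC, with a median of 1.63. The other 8 were not called, among them the 3 C1q chain genes. C3, the central component, had 35944, 28737, 37141 and 29455 in LN-LEC and 5219, 1378 and 5384 in LN-BEC. Hc, which encodes C5, had 1487, 1358, 1446 and 1012 against 7.88, 8.65 and 76.7. Cd55, which speeds the decay of C3 convertases on host cells, had 53291, 60572, 57418 and 51064 against 3824, 3613 and 4939 (13.6-fold). These 3 genes had no overlap between populations. C2 (17.4-fold) went with them, while the protease genes C1s and Cfd (adipsin) were 4.83-fold and 13.7-fold higher in LN-BEC. Cfd is also abundant in adipocytes.

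Many genes of sterol synthesis were higher in LN-LEC by small folds. Of 23 genes of cholesterol biosynthesis and its regulation, 17 were higher in LN-LEC and 1 in LN-BEC, none by 5-fold, 5 were not called, and the median was 0.80. Hsd17b7, a sterol ketoreductase of the later steps, had 3738, 4094, 2929 and 2530 in LN-LEC and 1170, 1104 and 1019 in LN-BEC (3.05-fold). Cyp51, the lanosterol demethylase, had 2025, 2102, 1683 and 1722 against 879, 882 and 796 (2.23-fold). Sqle, the squalene epoxidase, differed less, at 972, 1319, 940 and 905 against 608, 653 and 500 (log2 0.83, SE 0.16, edgeR adjusted p = 0.000878). All of these separated the libraries without overlap. The 1 member higher in LN-BEC was Stard4, a sterol carrier.

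**Figure D4:**
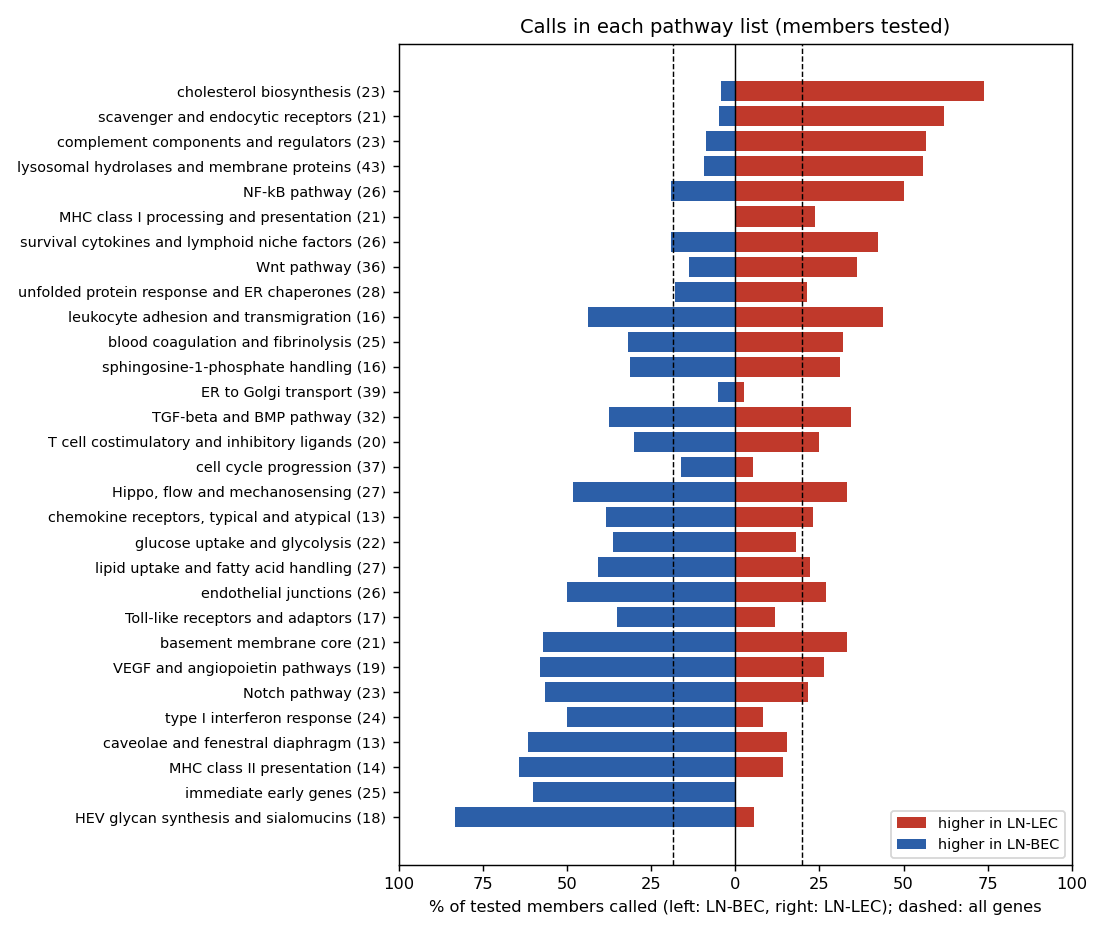
Percent of the tested members of 30 pathway lists that were called higher in LN-LEC (right) or LN-BEC (left), with the number tested in brackets and dashed lines at the shares over all genes (19.8% and 18.4%). Cholesterol biosynthesis (17 of 23) lies at the LN-LEC end and HEV glycan synthesis (15 of 18) at the LN-BEC end.

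Cytokines and growth factors of the lymphoid niche were divided between the 2 populations. Of 26 such genes, 11 were higher in LN-LEC and 5 in LN-BEC, and 15 of these 16 calls were at least 5-fold. Il33, an alarmin stored in stromal nuclei, had 22648, 19110, 22838 and 14445 in LN-LEC and 787, 245 and 1145 in LN-BEC. Csf1, the macrophage growth factor, had 25191, 22712, 27349 and 22326 against 1568, 1333 and 2359 (14.1-fold). Bmp2 had 9357, 9738, 6911 and 10714 against 406, 330 and 469 (23.1-fold). The T cell survival factor Il7 (7.19-fold) and the chemokine Ccl20 (51.4-fold) were on the same side. LN-BEC had more Cxcl12, the ligand of CXCR4, at 35465, 36076 and 34790 against 1839, 1301, 1245 and 2037 in LN-LEC. Kitl (stem cell factor) and Il15 were 5.79-fold and 9.60-fold higher in LN-BEC. The lymphoid chemokine Cxcl13 was not called (edgeR adjusted p above the threshold), with mean levels of 2023 in LN-LEC and 1411 in LN-BEC.

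The atypical chemokine receptors, which bind and remove or carry chemokines without signalling through G proteins, differed in direction. Of 13 chemokine receptors of all kinds, 3 (23.1%) were higher in LN-LEC and 5 (38.5%) in LN-BEC, against 19.8% and 18.4% of all genes. Without LN-BEC replicate 3 the count was 3 in each direction. Ccrl1 (now Ackr4), which removes CCL19 and CCL21, had 7382, 6469, 6062 and 12966 in LN-LEC and 306, 137 and 506 in LN-BEC. Ccbp2 (Ackr2), which removes inflammatory CC chemokines, had 3891, 3640, 3928 and 4954 against 1200, 1338 and 1084. Darc (Ackr1), the receptor of venules, had 386, 326, 384 and 402 in LN-LEC and 6092, 8172 and 7324 in LN-BEC (19.0-fold). Each of these 3 receptors separated the populations completely. Ccrl2, which binds chemerin, was 1.37-fold higher in LN-BEC (edgeR adjusted p = 0.0363), a call that was lost without any 1 of the LN-BEC libraries (adjusted p up to 0.103 over the alternatives). Cxcr7 (Ackr3) was not called, at means of 2071 and 1565. Among signalling receptors Cxcr4 was 25.02-fold higher in LN-BEC, in the same population as its ligand Cxcl12.

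NF-kB pathway genes tended toward LN-LEC, 13 of 26 against 5 in LN-BEC, with a median of 0.31 and no call as large as 5-fold. Tnfrsf11a (RANK), a receptor used in lymph node organogenesis, had 29857, 26272, 17268 and 37361 in LN-LEC and 9160, 9408 and 4703 in LN-BEC. Both the non-canonical subunit genes Relb (means 2477 and 1388) and Nfkb2 (5105 and 3612) were among the 13. The lymphotoxin receptor gene Ltbr was not called, at means of 1328 and 1463. Wnt pathway genes leaned the same way, with 13 of 36 higher in LN-LEC and 5 in LN-BEC. Fzd1, Fzd7 and Sfrp1, with LN-LEC and LN-BEC means of 2721 and 255, 2599 and 449, and 2843 and 479, were higher in LN-LEC, whereas the VEGF- and norrin-linked receptor gene Fzd4 was higher in LN-BEC at means of 120 and 806.

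Genes of HEV sugars were higher in LN-BEC. Of 18 genes for HEV glycans and the sialomucins that carry them, 15 were higher in LN-BEC and 1 in LN-LEC, with a median of -1.80. Glycam1, the secreted ligand of L-selectin, had 81638, 80785, 54840 and 73682 in LN-LEC and 2399830, 2814460 and 2068090 in LN-BEC (33.0-fold). Chst4, the sulfotransferase restricted to HEV, had 33.7, 25.4, 29.4 and 55.9 in LN-LEC and 3935, 4731 and 3535 in LN-BEC (105-fold). Fut7, the fucosyltransferase that completes sialyl Lewis X, had 54.4, 41.9, 72.4 and 59.1 against 4855, 6087 and 4232 (87.0-fold). No LN-LEC library came near the LN-BEC range for these genes. The carrier gene Cd34 was 61.1-fold and Enpp2 (autotaxin), which makes lysophosphatidic acid at HEV, 6.39-fold higher in LN-BEC. Enzymes of general use differed less, as with Gcnt1 (3.31-fold) and Chst2 (means 4066 and 7531), and B4galt1 was slightly higher in LN-LEC. Of 18 sialyltransferases 8 were higher in LN-BEC and 1, St6galnac3, in LN-LEC.

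Adhesion molecules were exchanged between the lineages rather than enriched in one, with 7 of 16 higher on each side. Alcam had 21748, 20894, 19955 and 16411 in LN-LEC and 577, 488 and 1229 in LN-BEC. Vcam1, the ligand of integrin alpha 4 beta 1, had 11218, 11594, 10171 and 12667 against 2873, 2225 and 2588. Jam2, a junctional adhesion molecule of HEV, had 378, 269, 226 and 386 in LN-LEC and 20528, 18780 and 20194 in LN-BEC (62.0-fold). The populations did not overlap for these 3 genes, although Vcam1 was also well detected in LN-BEC. Madcam1, the mucosal addressin, was 2.34-fold higher in LN-BEC, at 3680, 4012, 2983 and 3514 against 7198, 10894 and 7039. Icam1 was not called, at means of 4031 and 4092. Among junction genes Esam was 19.2-fold higher in LN-BEC and Cldn5 4.01-fold higher in LN-LEC, and 7 of 26 were higher in LN-LEC and 13 in LN-BEC.

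Angiogenic and arterial signalling genes were mostly higher in LN-BEC. Of 19 VEGF and angiopoietin pathway genes 11 were higher in LN-BEC and 5 in LN-LEC, and of 23 Notch pathway genes 13 and 5. Nrp1, the co-receptor of VEGF-A, had 887, 479, 534 and 795 in LN-LEC and 47090, 44379 and 45414 in LN-BEC. Aplnr, the apelin receptor of sprouting veins and capillaries, was 93.8-fold higher in LN-BEC. Kdr (VEGF receptor 2) was not called, at means of 17018 and 17296. Notch receptors split: Notch4 had 85.6, 68.6, 87.1 and 133 in LN-LEC and 3796, 3891 and 4666 in LN-BEC, while Notch2 had 48762, 51319, 46731 and 44246 in LN-LEC and 6071, 5558 and 8259 in LN-BEC. The Notch target Hey1 was 17.4-fold higher in LN-BEC, and Dtx1, which encodes a Notch-binding ubiquitin ligase, was 10.7-fold higher in LN-LEC.

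Of 32 genes of the TGF-beta and BMP pathway 11 (34.4%) were higher in LN-LEC and 12 (37.5%) in LN-BEC. The shares over all genes were 19.8% and 18.4%. Calls went both ways among ligands and among receptors, since the ligand gene Bmp6 was higher in LN-BEC and the receptor gene Acvr1 in LN-LEC. The ligand genes Bmp2 and Tgfb3 and the latency protein gene Ltbp1 were at least 5-fold higher in LN-LEC, with means of 1198 and 120 for Tgfb3 and 6322 and 786 for Ltbp1. The feedback and target genes Id1, Id3, Smad6 and Smad7 were at least 5-fold higher in LN-BEC. Id1, a direct BMP target, had 262, 145, 207 and 270 in LN-LEC and 13003, 12516 and 16829 in LN-BEC (62.8-fold). Smad6, an inhibitor of BMP receptors, had 13, 24.1, 10.2 and 12.6 against 274, 317 and 331. No LN-LEC library reached the LN-BEC range for either gene. The endothelial BMP receptor genes Acvrl1 and Eng were also higher in LN-BEC, at means of 920 and 2753 and of 3900 and 10868.

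Transcription factor families differed in their lean. Of 17 Sox genes 7 were higher in LN-BEC and 1, Sox4, in LN-LEC, with a median of -1.36. The difference in Sox4 was small (log2 0.34, SE 0.12, edgeR adjusted p = 0.0416). Sox17, an arterial factor, had 37.6, 35.5, 24.9 and 58.5 in LN-LEC and 3582, 3729 and 3954 in LN-BEC (90.3-fold). Of 16 Klf genes 7 were higher in LN-BEC and 0 in LN-LEC. The flow-induced Klf2 had 2331, 2304, 2724 and 4376 against 6362, 7700 and 12197. In both populations Klf2 was highest in the library with the most salivary transcripts. Fox genes were even, with 6 of 30 higher in LN-LEC and 7 in LN-BEC, and Foxc2, needed for lymphatic valves, and Foxp2 were on the LN-LEC side at means of 8547 and 684 and of 6791 and 371. Of 355 Zfp zinc finger genes 57 (16.1%) were higher in LN-LEC and 34 (9.58%) in LN-BEC, against 19.8% and 18.4% of all genes, with 5 calls of at least 5-fold in each direction.

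Hox genes, which record position along the body axis, were divided by cluster. Of 9 Hoxa genes tested 8 were higher in LN-BEC, of 8 Hoxb genes 5 were higher in LN-BEC, and of 7 Hoxd genes 5 were higher in LN-LEC. None of these 3 clusters had a call in the opposite direction, and none of 6 Hoxc genes was called. Hoxd9 had 12370, 13788, 12489 and 12809 in LN-LEC and 2068, 1879 and 3365 in LN-BEC (5.34-fold). Hoxd10 had 1237, 1356, 1257 and 1482 against 60.4, 65.7 and 122 (16.5-fold). Hoxb9 ran the other way, at 14.3, 15.2, 10.2 and 18.2 against 279, 362 and 221 (19.2-fold). Hoxa3 had means of 1401 in LN-LEC and 3505 in LN-BEC. On the log2 scale the Hoxa differences ran from -3.28 to -0.080 and the called Hoxd differences from 0.48 to 4.04. Members of one cluster lie next to each other and can share regulation and, without strand in the counting, antisense reads, so they are not independent observations.

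**Figure D5:**
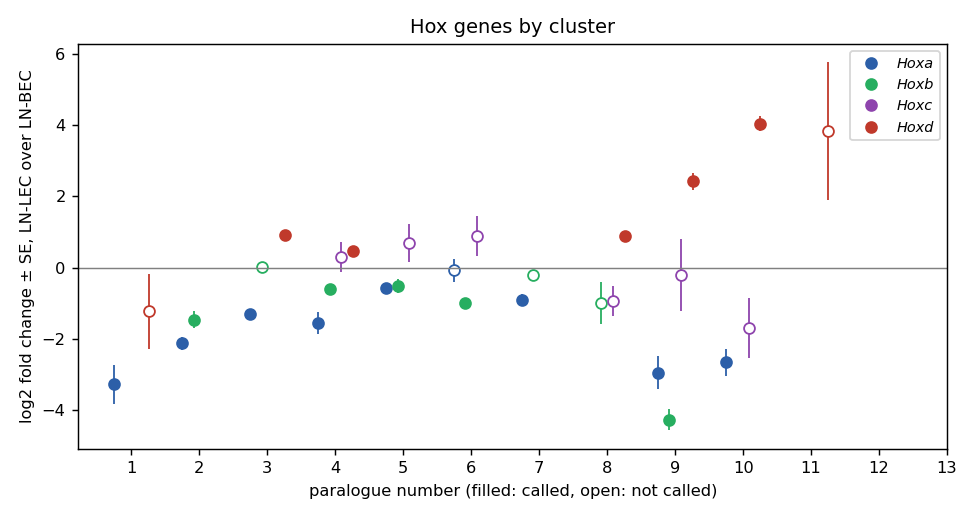
Fitted log2 fold change (LN-LEC over LN-BEC, ± SE) of the 30 tested genes of the 4 Hox clusters against paralogue number, filled where called. Called Hoxa and Hoxb genes lie below 0 and called Hoxd genes above 0, from Hoxb9 at -4.26 to Hoxd10 at 4.04.

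Interferon-stimulated genes leaned to LN-BEC, mostly by small folds. Interferon acts through the ISGF3 complex, which binds a repeated GAAA element in the promoters of its target genes. Of 24 genes of the type I interferon response 12 were higher in LN-BEC and 2 in LN-LEC, with a median of -0.37. Promoters of 18 of these were found in RefSeq sequences of build GRCm38.p6, each running from 250 bases before to 50 bases after the annotated start. Mx1, Mx2, Oas2, Usp18 and Rtp4 were among the members without one. The core of the element, 1 GAAA followed after any 2 bases by another GAAA, was searched on both strands, and 10 of the 18 held it (55.6%), against 1079 of 27025 symbols with a promoter in the table (3.99%). Since the list holds known interferon genes, a high share was likely beforehand and does not bear on the difference between populations. The core was found for 5 of the 10 members higher in LN-BEC that had a promoter. Over all genes tested that had a promoter its share was 3.75%. It was 4.59% for those higher in LN-BEC and 3.73% for those higher in LN-LEC. The 250 bases upstream of the start are shown for Rsad2, Ifit3, Ifit1 and Oas1a, which were higher in LN-BEC, and for Isg15, which was not called, with matches in capitals. On the other strand the same core reads TTTC, and overlapping matches run together.
Rsad2, chr12:26456453-26456702, minus strand: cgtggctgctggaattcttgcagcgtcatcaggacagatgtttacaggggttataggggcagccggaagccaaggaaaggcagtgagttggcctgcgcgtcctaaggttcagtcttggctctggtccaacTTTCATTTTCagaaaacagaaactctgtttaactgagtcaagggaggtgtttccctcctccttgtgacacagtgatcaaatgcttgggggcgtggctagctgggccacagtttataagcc
Ifit3, chr19:34583279-34583528, plus strand: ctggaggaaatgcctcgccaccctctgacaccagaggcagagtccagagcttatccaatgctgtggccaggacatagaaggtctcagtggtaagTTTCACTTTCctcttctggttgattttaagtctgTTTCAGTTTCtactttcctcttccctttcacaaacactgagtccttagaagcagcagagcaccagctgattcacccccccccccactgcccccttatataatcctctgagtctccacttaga
Ifit1, chr19:34640639-34640888, plus strand: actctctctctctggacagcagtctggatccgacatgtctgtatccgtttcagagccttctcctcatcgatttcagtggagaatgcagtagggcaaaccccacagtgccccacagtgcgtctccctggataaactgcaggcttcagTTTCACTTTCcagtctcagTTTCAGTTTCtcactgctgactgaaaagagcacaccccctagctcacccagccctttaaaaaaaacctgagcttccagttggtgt
Oas1a, chr5:120907526-120907775, minus strand: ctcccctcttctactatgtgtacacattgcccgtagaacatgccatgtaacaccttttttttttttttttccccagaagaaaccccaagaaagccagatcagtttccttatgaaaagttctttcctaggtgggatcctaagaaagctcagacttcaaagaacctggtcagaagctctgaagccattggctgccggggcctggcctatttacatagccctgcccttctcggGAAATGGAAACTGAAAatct
Isg15, chr4:156200819-156201068, minus strand: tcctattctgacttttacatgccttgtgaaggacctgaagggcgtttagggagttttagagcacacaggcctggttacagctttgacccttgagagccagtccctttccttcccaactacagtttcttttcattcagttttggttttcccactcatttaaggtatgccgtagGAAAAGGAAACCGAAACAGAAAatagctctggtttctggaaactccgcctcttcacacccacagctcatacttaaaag

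Rsad2 (viperin), an antiviral enzyme, had 3016, 1475, 2352 and 2387 in LN-LEC and 26098, 26102 and 22019 in LN-BEC, a 10.6-fold difference and the largest of the list. It holds 1 match that begins 120 bases before the start. Ifit3 had 997, 633, 989 and 969 in LN-LEC and 2804, 2789 and 2631 in LN-BEC, with 2 matches. Ifit1, also with 2 matches, differed by only 1.399-fold, at 1681, 1304, 1810 and 1791 against 2264, 2268 and 2462. Isg15 with 3 overlapping matches did not pass the test (log2 0.17, SE 0.21, edgeR adjusted p = 0.56), at 183, 138, 190 and 124 against 137, 151 and 139. Genes with the motif were thus found with large, small and no detected differences. Mx1 ran opposite, at 2030, 1287, 1375 and 1580 in LN-LEC and 460, 407 and 348 in LN-BEC. Irf9, a part of the signalling chain, was not called, at means of 4451 and 3939.

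Antigen presentation gave different answers for the 2 classes. MHC class I genes were close to level, with no 5-fold call and a median of 0.16. Of 21 genes 5 were higher in LN-LEC (23.8%, against 19.8% of all genes) and 0 in LN-BEC. B2m had 494797, 454795, 563879 and 420444 in LN-LEC and 427751, 443450 and 458160 in LN-BEC, and did not pass the test. MHC class II genes were higher in LN-BEC for 9 of 14 and in LN-LEC for 2, the proteases Ctss and Ctsl. H2-Aa, an MHC class II chain, had 288, 234, 681 and 337 in LN-LEC and 1337, 1683 and 1651 in LN-BEC, and the invariant chain gene Cd74 was not called. B cell markers were mostly called in the same direction, but did not follow H2-Aa from library to library. In LN-LEC replicate 3, where H2-Aa was highest at 681, their summed level was the lowest of the LN-LEC libraries, at 760. Of 9 such markers 7 were higher in LN-BEC, and the summed level of the 9 was 760 to 1578 in LN-LEC libraries and 1201 to 1705 in LN-BEC libraries. T cell markers were higher in LN-BEC for 7 of 11 and in LN-LEC for 2, with means of 10.7 and 109 for Cd3e. The summed level of the 11 overlapped, at 652 to 772 in LN-LEC libraries and 618 to 1006 in LN-BEC libraries. The part of leukocyte RNA in the class II result was not tested. Cd5 and Lck, usually lymphocyte genes, went the other way, and Cd5 stood at 248.9, 350, 311 and 355 in LN-LEC and 19.3, 22.5 and 27.3 in LN-BEC. H2 genes have near-identical relatives, and their counts are uncertain for that reason.

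Immediate early genes, which respond within minutes to stimulation, were higher in LN-BEC for 15 of 25 and in LN-LEC for 0, with a median of -1.52. Egr1 had 9505, 5854, 6398 and 19958 in LN-LEC and 39955, 30938 and 50967 in LN-BEC. Nr4a1, an orphan nuclear receptor gene, had 242, 218, 187 and 710 against 1661, 1700 and 2451. Within each population both genes were highest in LN-LEC replicate 4 and LN-BEC replicate 3. Without LN-BEC replicate 3 the test called 12 of the 25 and without both libraries 19, all higher in LN-BEC. The methods describe the same digestion protocol for both populations. They do not state whether LN-LEC and LN-BEC libraries shared a digestion, and differences in handling time were not recorded in the labels.

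Transport and metabolism differed in individual genes more than in whole classes. Of 320 solute carriers 80 were higher in LN-LEC and 57 in LN-BEC, close to the shares over all genes. Slc38a4, an amino acid transporter, had 12120, 11293, 10378 and 11188 in LN-LEC and 186, 111 and 560 in LN-BEC. Slc14a1, the urea transporter, was 102-fold higher in LN-BEC. Of 45 ABC transporters 16 were higher in LN-BEC and 6 in LN-LEC, with Abcg2 joining Abcb1a at 1928, 2271, 1748 and 1908 against 13586, 14190 and 12952. Both are efflux pumps of the blood-brain barrier. The aquaglyceroporin Aqp7 was 45.6-fold higher in LN-BEC, and so were the capillary genes for fatty acid handling Fabp4 (6.38-fold) and Gpihbp1 (18.3-fold), which anchors lipoprotein lipase. Fabp4, Aqp7 and Gpihbp1 are genes of fat tissue capillaries or adipocytes too, and all 3 were highest in LN-BEC replicate 3, as with Gpihbp1 at 6899, 6113 and 12983. Other genes of adipocytes, chosen after their values were seen, were higher in LN-BEC as well. Adipoq (adiponectin) had 0, 5.08, 9.05 and 20.1 in LN-LEC and 70, 10.4 and 96.6 in LN-BEC, which overlap and lost the call without LN-BEC replicate 1 or 3 (edgeR adjusted p up to 0.0974 over the alternatives), and Adig (adipogenin) was 5.36-fold higher. Car3 had 45.4, 25.4, 23.7 and 68.5 against 451, 225 and 659. The adipocyte lipid droplet gene Plin1 was near 0 in both populations, at means of 1.76 and 3.32. The part of adipocyte RNA in the results on Cfd and on fatty acid handling was not tested. Of 27 genes of lipid uptake 11 (40.7%) were higher in LN-BEC and 6 (22.2%) in LN-LEC, against 18.4% and 19.8% of all genes. Caveolar genes were higher in LN-BEC for 8 of 13, including Cav1 at 53058, 48867 and 56386 against 15097, 13764, 14165 and 19723. Of 22 glycolysis genes 8 (36.4%) were higher in LN-BEC and 4 (18.2%) in LN-LEC.

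Coagulation factors were divided evenly, 8 of 25 (32.0%) in each direction, against 19.8% (LN-LEC) and 18.4% (LN-BEC) of all genes. F8, the gene of factor VIII, had 61185, 57955, 68022 and 46001 in LN-LEC and 6853, 6497 and 7622 in LN-BEC (8.43-fold). Vwf, which encodes the carrier of factor VIII in plasma, had 119, 102, 95.0 and 191 in LN-LEC and 6842, 6424 and 5769 in LN-BEC (48.2-fold). F8 was thus higher in every LN-LEC library and Vwf in every LN-BEC library, although F8 was also well detected in LN-BEC. Entpd1 (CD39), which degrades ATP and ADP at the vessel wall, was 83.1-fold higher in LN-BEC, and the endothelial protein C receptor gene Procr was higher in LN-LEC at means of 4202 and 1408.

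Matrix genes showed chain switches within families. Of 21 basement membrane genes 12 were higher in LN-BEC and 7 in LN-LEC. Of 12 fibroblast and mural cell markers, 5 were also higher in LN-BEC (Pdgfrb, Acta2, Cspg4, Myh11 and Tagln) and 0 in LN-LEC. The summed level of the 12 was 7342 to 12634 in LN-LEC libraries and 7996 to 14791 in LN-BEC libraries, and their part in the basement membrane result was not tested. Cspg4 (NG2), a pericyte marker, had 3.89, 2.54, 1.13 and 4.4 in LN-LEC and 57.8, 42.4 and 52.5 in LN-BEC. The common collagen IV chains Col4a1 and Col4a2 were 5.15-fold and 5.51-fold higher in LN-BEC. The chains Col4a5 and Col4a6, which lie head to head on chromosome X, were 13.4-fold and 9.45-fold higher in LN-LEC, at 2799, 2750, 2212 and 2806 against 230, 141 and 227 for Col4a5. Laminin chains split likewise, with Lamb3 (19.997-fold) higher in LN-LEC and Lama3 (44.2-fold) and Lama5 higher in LN-BEC. The level of Lama3, the usual partner of Lamb3, was 66.1, 102, 31.7 and 43.4 in LN-LEC. Of 19 matrix metalloproteinases 6 were higher in LN-LEC and 1, Mmp15, in LN-BEC. The repulsive guidance genes Sema3a (7831, 8792, 6386 and 7123 against 168, 62.3 and 373) and Sema3d (37.3-fold) were higher in LN-LEC.

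Serpin genes were called in both directions. Of 42 tested, 12 (28.6%) were higher in LN-LEC and 13 (31.0%) in LN-BEC, against 19.8% and 18.4% of all genes. Serpina3n had 6984, 8517, 7128 and 8142 in LN-LEC and 245, 106 and 633 in LN-BEC, and Serpina3g was 7.42-fold higher in LN-LEC. Serpina1e, an alpha-1-antitrypsin gene, had 114, 88.9, 88.2 and 115 against 9879, 11940 and 8661, and Serpinb1a, an inhibitor of neutrophil elastase, was 38.3-fold higher in LN-BEC. The Serpina1 and Serpina3 genes are tandem copies, so that their counts may be shared between copies. The insulin-like growth factor binding proteins differed in direction as well, with Igfbp4 5.90-fold higher in LN-LEC and Igfbp3 44.6-fold higher in LN-BEC.

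Housekeeping classes differed little in size. Of 82 cytosolic ribosomal protein genes 20 were higher in LN-BEC (24.4%, against 18.4% of all genes) and 2 in LN-LEC (2.44%, against 19.8%). The median was -0.16 and there was no 5-fold call. Without LN-BEC replicate 3 the count was 13 against 2, and without that library and LN-LEC replicate 4 it was 8 against 3. Of 37 cell cycle genes 2 (5.41%) were higher in LN-LEC and 6 (16.2%) in LN-BEC, below the shares over all genes. Rps3 was 1 of the 2 cytosolic ribosomal protein genes higher in LN-LEC, at 84452, 81068, 97422 and 82511 in LN-LEC and 26492, 29414 and 29581 in LN-BEC. Over the 82 genes the log2 fold changes ran from -1.26 to 1.62. Ribosomal protein genes have many processed copies, and their counts are uncertain. Of 36 complex I subunits 11 (30.6%) were higher in LN-LEC and 2 (5.56%) in LN-BEC. For 76 mitochondrial ribosomal proteins the counts were 12 (15.8%, against 19.8% of all genes) and 2 (2.63%, against 18.4%).

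Neighbouring genes were sometimes called together. Of 15314 tested genes placed on 1 chromosome, 67 runs of at least 4 adjacent genes were higher in LN-LEC (300 genes) and 56 in LN-BEC (261 genes). The longest held 17 genes higher in LN-BEC on chromosome 1 of mm9, from 174430377 to 175872623, and ran from Tagln2 through Darc and the interferon-inducible Aim2 to Ifi204, Mnda and Ifi203. Ifi204, inside the run, lost its call under 5 alternatives, which breaks the run there (edgeR adjusted p up to 0.145). The next, of 8 genes on chromosome 19 from 34266760 to 34724499, held Acta2, Fas, Ch25h, Lipa and Ifit2, Ifit3 and Ifit1, and was also higher in LN-BEC. In LN-LEC the longest run was of 8 genes on chromosome 7 from 74875047 to 80564785, with Igf1r and Nr2f2, which encodes the venous and lymphatic factor COUP-TFII. Others were of 7 genes with Jak1 and Lepr on chromosome 4 in LN-LEC and of 7 genes with Lpar4, P2ry10 and Gpr174 on chromosome X in LN-BEC, and the first of those with 6 genes held Ccl20 on chromosome 1 in LN-LEC. The Hoxd genes Hoxd10, Hoxd9, Hoxd8, Hoxd3 and Hoxd4 formed a run of 5 in LN-LEC on chromosome 2 from 74530005 to 74586328. Genes that overlap can share reads: 1607 of the genes tested share at least 1 exon base with another row of the table, and 374 share over 20% of theirs.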

How the data were processed

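Amplified RNA was sequenced for 10 libraries, 4 of them LN-LEC and 3 LN-BEC. The authors trimmed reads, aligned fragments to mm9 with STAR and summed them over exons per gene with featureCounts v1.4.4 without regard to strand, and the deposited counts are these raw fragment counts. Of 23284 rows, 3831 without a gene name were left out. A gene was tested when its normalized count averaged at least 1 in some population, with edgeR 4.0.16 (R 4.3.3; TMM scaling, robust quasi-likelihood F-test, all 10 libraries, Benjamini-Hochberg adjusted p under 0.05). Standard errors were derived from the log2 fold change and its F statistic. DESeq2 1.42.0 gave the size factors of the levels and an alternative test. The procedure was tested on simulated data.

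The genes named were members of 38 lists and 53 families, the 12 largest folds in each direction among called genes whose libraries do not overlap and whose mean is at least 100 in the higher population, and the 6 longest runs of neighbours. The 13 salivary and 6 pancreatic genes were added after values were seen. Members, lists and tests were chosen with earlier results of these data known. Populations were taken from the labels. Alternatives were another scaling, DESeq2, other filters on low values, the 7 lymph node libraries alone, a test against a fold of 5, and each library left out. Promoters came from a RefSeq table of build GRCm38.p6, and gene coordinates from the deposited table in mm9. Some members of the lists are counted in them but are not reported here by name.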

Additional observations from a re-analysis of the deposited data

Results flagged for a closer look

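In the 4 LN-LEC libraries, a library was singled out when its gap to the nearest other library, over the whole range, exceeded Dixon's critical value, which chance does for about 1 in 20 groups. Of 213 named genes 19 were flagged, together with 2 measures of whole libraries. The salivary genes, the salivary share and Adig were chosen after their values were seen, so their flags carry no weight of their own. The other named genes were flagged at about the rate that chance gives. The LN-BEC have 3 libraries and were not tested this way.

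LN-LEC replicate 4 was flagged for depth, with 48906070 fragments against 22429940 to 25055138 in the others, and for the share of salivary transcripts, at 8.68% against 1.67% to 2.07%. Its levels of 8 salivary genes stood apart, at 1802920 for Bpifa2, 260607 for Smr3a, 175418 for Amy1, 126294 for Dcpp2, 93949 for Pip, 30854 for Car6, 2376 for Muc19 and 322 for Aqp5. The same library was highest for Nr4a1 (710 against 187 to 242), Mmrn1 (40067 against 31196 to 32275), Il7 (1423 against 1080 to 1117) and Adig (11.3 against 1.30 to 2.54). It was lowest for Fzd1 (1861 against 2902 to 3111) and Hoxd4 (1015 against 1218 to 1251).

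LN-LEC replicate 3 was highest for Cd74 (2507 against 1817 to 1922) and lowest for Col4a5 (2212 against 2750 to 2806). LN-LEC replicate 2 was lowest for Ifit3 (633 against 969 to 997) and highest for Sqle (1319 against 905 to 972), and replicate 1 was lowest for Il15 (398 against 503 to 519).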

How the results depend on the processing

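The count of 5849 called genes was 5063 to 5605 with 1 library left out, with 2632 to 2885 higher in LN-LEC and 2428 to 2720 in LN-BEC. The 5-fold counts were then 603 to 748 in LN-LEC and 750 to 845 in LN-BEC, the called members of the pathway lists 377 to 417 against 415, and the runs of neighbours 92 to 106 against 123. Genes with an FPKM of at least 1 gave 445 and 486 5-fold calls, since fewer genes were tested, and edgeR's test against a fold of 5 gave 313 and 373, since it asks that the fold exceed 5 beyond its error. Counts of list members moved by over 1.5 times in 48 combinations of list, direction and setting, all from counts of at most 8 genes. DESeq2 called 5997 genes, 5726 of them among the 5849. With carry-over genes chosen at 50-fold, the median was 0.881% in LN-BEC replicate 1 (3 genes) and 0.911% in LN-LEC replicate 2, and the cause was not tested.

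Of 188 named genes that were called, 180 were called under every alternative. Sox4 was lost under 7 of them (largest edgeR adjusted p = 0.191), including without any 1 of the 3 LN-BEC libraries or of LN-LEC replicates 3 and 4. Ccrl2 was lost under 7 (0.103), including without any 1 of the LN-BEC libraries or of LN-LEC replicates 2, 3 and 4, and Adipoq under 6 (0.0974). Ifi204 was lost under 5 (0.145), Cd68 under 4 (0.0723), Siglec1 under 2 (0.0761), Oas1a under 2 (0.0509, without LN-BEC replicate 1 or 2) and Gpr174 without LN-BEC replicate 2 (0.0562). Csf1r, not called, was higher in LN-LEC without LN-BEC replicate 3 (log2 1.31, edgeR adjusted p = 0.0183). A covariate for the log2 level of Bpifa2, chosen after seeing the data and fitted to the 7 lymph node libraries, gave 6367 calls, 5614 of them shared, and reversed Muc19 to 2.73; the cause was not tested.

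No paired analysis was possible because the labels tie no LN-LEC library to an LN-BEC library and the replicate numbers only name them. Depth did not limit abundant genes, while genes of a few counts per library have folds that rest on few fragments.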
